A study of Homo sapiens with 7 samples.

Results

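LTR48B and LTR48 are 2 families of long terminal repeats (LTRs) of the ERV1 class of human endogenous retroviruses, counted here among RNA pulled down with the J2 antibody, which binds double-stranded RNA. Their rows were taken by repeat name from both workbooks the authors deposited. The first workbook lists 1021 LTR48B copies and 975 LTR48 copies, 1996 of 712115 annotated copies, and the second lists 1010 and 961, 1971 of 703140. At the family level they are 2 of 499 families in each workbook. The pair was chosen from earlier results of the same libraries, the differences of 5-Aza-CdR and of the Combination from PBS, so those differences are given as a description with no test.

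All 7 libraries came from HCT116, an established human colon carcinoma line, and no group carries a further genetic change in the labels. The 5-Aza-CdR group received 5-Aza-CdR, a cytidine analog (decitabine) that traps DNA methyltransferases, at 0.3 µM, and no dose is listed for the Combination. Cells of all 7 libraries are listed with a medium change after 24 h and were kept to day 5. The other treatments are labelled PBS, Vc and Combination; neither the Combination nor the amount of Vc is explained in the labels, and the study's published account gives vitamin C for Vc and both agents for the Combination. Set 1, the first workbook, covers PBS, 5-Aza-CdR and Combination with a single library per treatment, and set 2, the second, covers these and Vc in the same way. Libraries are therefore 2 for PBS, 2 for 5-Aza-CdR, 2 for Combination and 1 for Vc, and the labels do not say whether the 2 sets came from separate cultures, so p-values measure only the spread between these libraries, which may be technical. The family sheets sum to between 11531 and 32403 reads a library, and at this depth LTR48B and LTR48 had at most 42 reads in any library. The name of the second workbook says that duplicate reads were marked, so duplicate marking and set cannot be told apart.

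An LTR is the end repeat of a retroviral insertion and carries the promoter and the polyadenylation signal of the provirus. Most LTRs in the human genome now stand alone, because recombination between the ends of a provirus removed the coding part. In differentiated cells many are held silent by DNA methylation, and inhibitors of DNA methyltransferases are known for raising transcription from some of them. Transcripts that pair with a complementary strand, from an inverted copy or from antisense transcription, form the double-stranded RNA that J2 binds and that the sensor MDA5 recognises in the cytoplasm.

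LTR48B had 156 reads in all 7 libraries. In set 1 it had 7 reads with PBS, 40 with 5-Aza-CdR and 42 with the Combination. In set 2 the counts were 6 with PBS, 10 with Vc, 22 with 5-Aza-CdR and 29 with the Combination. The 4 libraries that received 5-Aza-CdR or the Combination are the 4 highest, and they do not overlap with PBS or Vc. Of the 352 families tested, 15 (4.26%) separate in this way per family read; LTR48B was chosen by these differences, and nothing is read from its place among them. Divided by the reads of all families, the LTR48B level was 302.6 RPM (reads per 1000000 family reads) with PBS in set 1 and 308.5 in set 2. With 5-Aza-CdR it was 3469 RPM (Wilson 95% interval 2549 to 4720) in set 1 and 935.1 (617.6 to 1415) in set 2. The Combination gave 2933 (2171 to 3962) in set 1 and 895.0 (623.2 to 1285) in set 2. The PBS levels of the sets lie close together, while both treatments stood higher in set 1 than in set 2, with intervals that do not overlap. Vc, at 540.7 RPM (293.7 to 995.1), lay between PBS and the other treatments of its set, and its interval overlaps both. Each interval was computed from a single library, so these intervals cover counting error only and not the spread between libraries. Reads amplified by PCR and carrying no molecular identifier may repeat a molecule, and the intervals would then be too narrow.

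LTR48 had 62 reads in all. Set 1 gave 8 reads with PBS, 4 with 5-Aza-CdR and 6 with the Combination. Set 2 gave 7 with PBS, 9 with Vc, 15 with 5-Aza-CdR and 13 with the Combination. Its levels ranged from 345.9 RPM (PBS, set 1) to 637.5 (5-Aza-CdR, set 2). In ascending order the LTR48 level was 345.9 with PBS in set 1, 346.9 with 5-Aza-CdR in set 1, 359.9 with PBS in set 2, 401.2 with the Combination in set 2, 419.0 with the Combination in set 1, 486.6 with Vc and 637.5 with 5-Aza-CdR in set 2. The counting intervals of all libraries overlap, with 175.3 to 682.4 at the lowest level and 386.4 to 1052 at the highest. Both PBS values and that of 5-Aza-CdR in set 1 lie below the latter interval. The order is a description, and no separation between treatments is read from it.

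**Figure D1:**
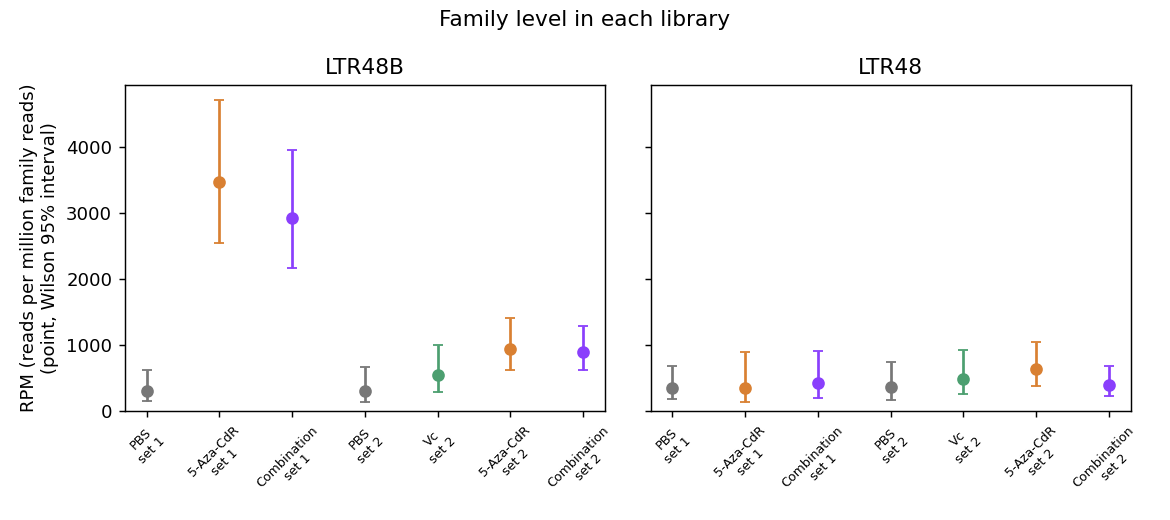
Level of LTR48B (left) and LTR48 (right) in each of the 7 libraries, in RPM, with points for the library's value and bars for the Wilson 95% interval of counting error. LTR48B stood at 3469 and 2933 RPM in the set 1 libraries with 5-Aza-CdR and the Combination and at 540.7 or less with PBS and Vc, while LTR48 lay between 345.9 and 637.5 in all libraries.

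Within set 1 the LTR48B level with 5-Aza-CdR was 11.5 times that with PBS (exact conditional binomial 95% interval 5.08 to 30.3), and with the Combination 9.69 times (4.31 to 25.6). Within set 2 the ratios were 3.03 (1.19 to 9.14) and 2.90 (1.18 to 8.55). The direction was alike in both sets, the ratios were larger in set 1, and the intervals of the sets overlap. In the fit over both sets (edgeR's quasi-likelihood fit with terms for treatment and set), the log2 change of LTR48B was 2.81 (95% interval 1.63 to 3.99) for 5-Aza-CdR minus PBS and 2.72 (1.55 to 3.89) for Combination minus PBS. Without PBS replicate 1, the PBS library of set 1, these were 2.09 and 1.99, and without PBS replicate 2 they were 3.44 and 3.35. LTR48B is 1 of 5 families past an adjusted p of 0.05 in the former comparison, 1.42% of the 352 tested, and 1 of 9 in the latter (2.56%), of which 8 were higher (2.27%); the choice of the family used these comparisons, and nothing is read from its place among them. Without the term for the set 0 and 2 families passed, and LTR48B was in neither count.

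LTR48 gave ratios to PBS of 1.0 (0.221 to 3.74) with 5-Aza-CdR and 1.21 (0.347 to 3.98) with the Combination in set 1. In set 2 they were 1.77 (0.680 to 5.14) and 1.12 (0.413 to 3.30). All 4 intervals include 1. The fitted log2 changes of LTR48 were 0.71 (-0.89 to 2.30) and 0.47 (-1.11 to 2.06). Their upper ends lie below the values of LTR48B, 2.81 and 2.72, and inside its intervals; whether the 2 families differ in response was not tested.

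The LTR48B reads rested on few copies: 2 of its 1021 copies held 108 of the 156 reads (69.2%). In all, 38 copies (3.72%) had a read in any library, 29 of them a single read. That share of copies was near that of LTR48, 4.00%. The leading copy lies on chromosome 6 at 27106003 to 27106594 (hg19, minus strand, 592 bases), in the part of the short arm that holds the large histone gene cluster. Its overlap with genes was not analysed here, since no hg19 annotation was used. It held 83 reads, 53.2% of the family (45.4 to 60.9%).

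In set 1 the chromosome 6 copy had 0 reads with PBS, 36 with 5-Aza-CdR and 31 with the Combination. In set 2 it had 0 with PBS, 4 with Vc, 6 with 5-Aza-CdR and 6 with the Combination. It was thus without a read in both PBS libraries and had reads in all 5 others. Taking 3 counts per library as the floor, a count of 0 stands for up to 129.7 RPM in the PBS library of set 1 and up to 154.2 in that of set 2; the Wilson upper limits are 166.0 and 197.5 RPM. Against that floor the level in set 1 was at least 24.1-fold higher with 5-Aza-CdR and at least 16.7-fold higher with the Combination; the exact conditional 95% intervals of these ratios start lower, at 18.6 and 12.8. The difference by which the families were chosen includes these values, and the percentages of the 409 copies with at least 30 reads past an adjusted p of 0.05 were 30.1% for 5-Aza-CdR minus PBS and 33.5% for Combination minus PBS in the copy fit described below, so nothing is read from the copy's place there. In set 2 the exact conditional intervals of the ratio to PBS start at 0.973 with 5-Aza-CdR, 0.707 with the Combination and 0.694 with Vc, all below 1. The copy's level was 3122 RPM (2256 to 4319) with 5-Aza-CdR in set 1 against 255.0 (116.9 to 556.3) in set 2, and 2165 (1526 to 3071) against 185.2 (84.9 to 404.0) with the Combination. This difference between the sets cannot be told apart from duplicate marking.

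The other leading copy lies on chromosome 10 at 88725424 to 88725980 (minus strand, 557 bases) and held 25 reads. It had 3 reads with PBS, 1 with 5-Aza-CdR and 1 with the Combination in set 1. In set 2 the counts were 2, 0, 7 and 11 with PBS, Vc, 5-Aza-CdR and the Combination. Reads at this copy were already present with PBS in both sets, unlike at the chromosome 6 copy. Its ratio to PBS was 0.669 (0.0127 to 8.33) with 5-Aza-CdR and 0.539 (0.0103 to 6.71) with the Combination in set 1, and 2.89 (0.551 to 28.6) and 3.30 (0.721 to 30.7) in set 2. All 4 intervals include 1.

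The copy next in rank, on chromosome 1 at 228310240 to 228310777 (minus strand, 538 bases), had 5 reads, 3 of them with PBS in set 1. Among all 38 copies with reads, 5 had reads in at least 2 libraries and 4 had reads in both sets. The copies outside the leading 2 had together 4, 3 and 10 reads in set 1 (PBS, 5-Aza-CdR, Combination) and 4, 6, 9 and 12 reads in set 2 (PBS, Vc, 5-Aza-CdR, Combination). No such copy had more than 3 reads in a library.

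**Figure D2:**
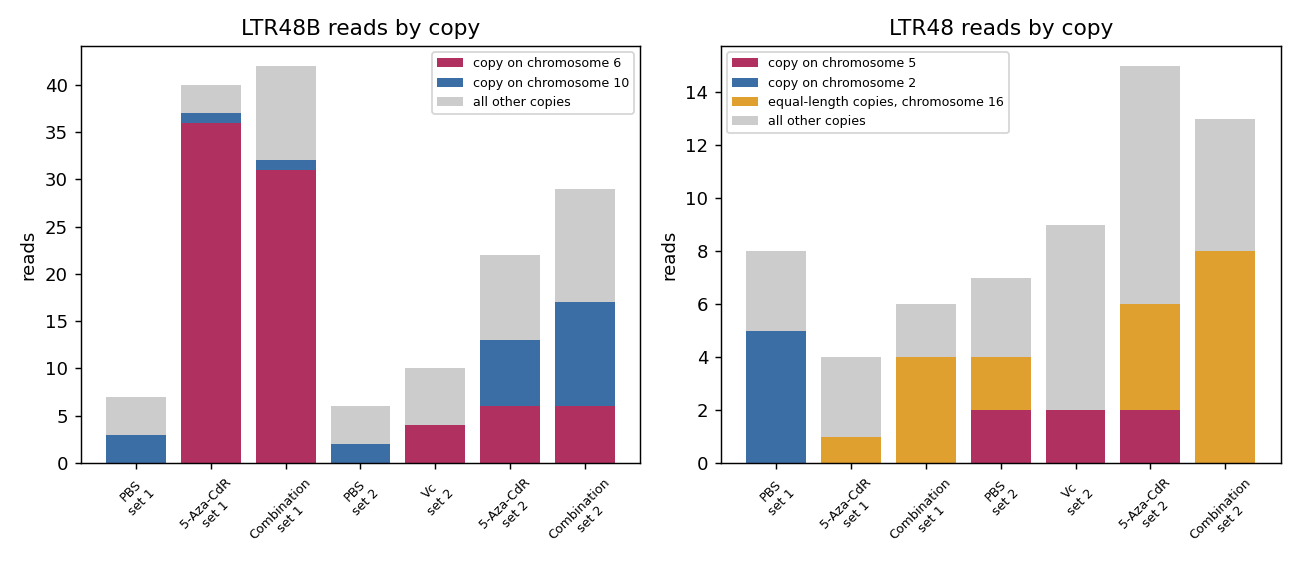
Reads of LTR48B (left) and LTR48 (right) in each library, stacked by the copy that holds them; the vertical axes are read counts and differ between panels. The chromosome 6 copy holds 36 of 40 and 31 of 42 LTR48B reads in set 1 with 5-Aza-CdR and the Combination but 6 of 22 and 6 of 29 in set 2, and the LTR48 reads are spread over many copies.

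The share of LTR48B reads at the chromosome 6 copy was 90% (77.0 to 96.0%) with 5-Aza-CdR and 73.8% (58.9 to 84.7%) with the Combination in set 1. In set 2 it was 27.3% (13.2 to 48.2%) and 20.7% (9.85 to 38.4%), and 40.0% (16.8 to 68.7%) with Vc. In those 2 set 2 libraries with 5-Aza-CdR and the Combination the chromosome 10 copy held more reads, 31.8% (16.4 to 52.7%) and 37.9% (22.7 to 56.0%). The effective number of copies, the inverse Simpson index of the reads, was 1.23 and 1.81 in set 1 and 5.04 and 4.92 in set 2 for the same treatments. The share at the chromosome 6 copy was thus lower in set 2 than in set 1 for both treatments, with intervals that do not overlap. These intervals cover counting error only and take each read as a separate molecule. Duplicate marking cannot be told apart from the set, so no cause is read from this difference. Which copy led in set 2 is within counting error. There the chromosome 6 and chromosome 10 copies had 6 and 7 reads with 5-Aza-CdR and 6 and 11 with the Combination, and their intervals overlap.

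Among families with at least 30 reads in a library, the median share at the leading copy was 8.17% with 5-Aza-CdR in set 1 (87 families) and 8.33% with the Combination in set 1 (98 families). Over the summed libraries of set 1, 96.2% of 235 families had a lower share than the 75.3% of LTR48B. Over those of set 2, 76.9% of 299 families had a lower share than its 29.9%. Over all libraries, 20 of 367 families had a higher share than LTR48B, and the median was 15.6%. LTR48 lay on the other side of that median, with 9.68% (4.51 to 19.6%) at its leading copy and 22.9% of families below it. These positions are descriptions: shares of families with few reads vary by counting error, and LTR48 reached 30 reads only in sums over libraries.

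**Figure D3:**
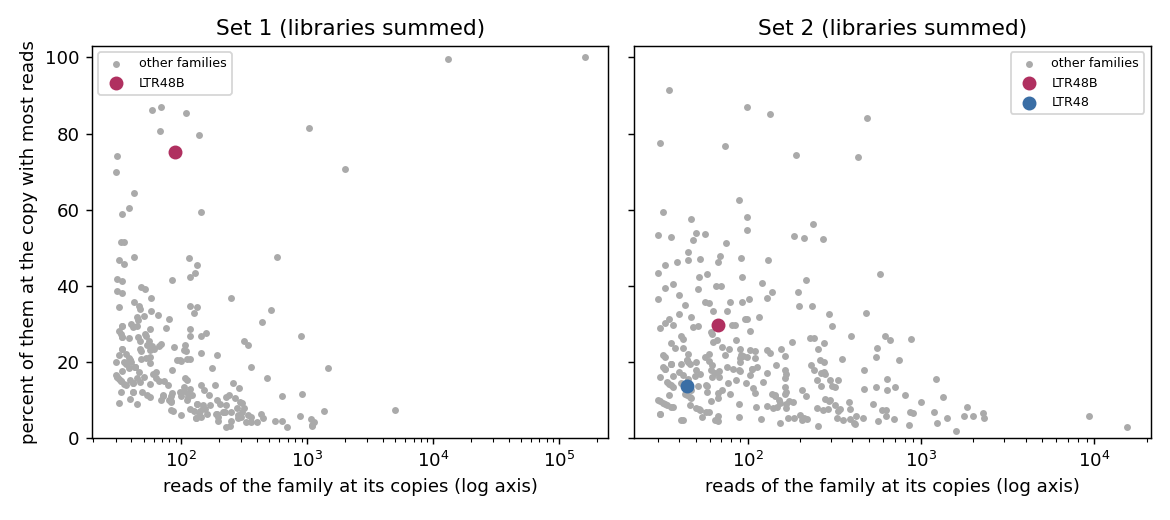
Percent of a family's reads at its leading copy (vertical axis) against the family's reads at all its copies (horizontal log axis), for every family with at least 30 reads over the summed libraries of set 1 (left, 235 families) or set 2 (right, 299 families). LTR48B lies at 75.3% in set 1 and 29.9% in set 2, and LTR48, which has 18 reads in set 1 and is not drawn there, lies at 13.6% in set 2.

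Leaving the chromosome 6 copy out of the family count shows how far the family difference rests on it. The copy was picked because it had the most reads. It had 0 reads with PBS in both sets, so a fall of the ratios to PBS is built into this step. Without it, LTR48B counted 7, 4 and 11 reads in set 1 (PBS, 5-Aza-CdR, Combination) and 6, 6, 16 and 23 reads in set 2 (PBS, Vc, 5-Aza-CdR, Combination). The ratio to PBS in set 1 was then 1.15 (0.246 to 4.51) with 5-Aza-CdR and 2.54 (0.899 to 7.72) with the Combination. In set 2 it was 2.20 (0.819 to 6.88) and 2.30 (0.911 to 6.91). All 4 intervals include 1 once the copy is left out. The fitted log2 change fell from 2.81 to 0.97 for 5-Aza-CdR minus PBS and from 2.72 to 1.5 for Combination minus PBS. Without the chromosome 10 copy as well, the ratios were 1.5 (0.220 to 8.89) and 4.04 (1.17 to 17.6) in set 1 and 1.86 (0.519 to 8.27) and 1.80 (0.546 to 7.66) in set 2. All of these stayed above 1 as point values, on 3 to 12 reads each. The interval of the Combination in set 1 lay above 1, and the other intervals included 1. Both set 1 ratios were higher than without the chromosome 6 copy alone. There the chromosome 10 copy held 3 of the 7 PBS reads.

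**Figure D4:**
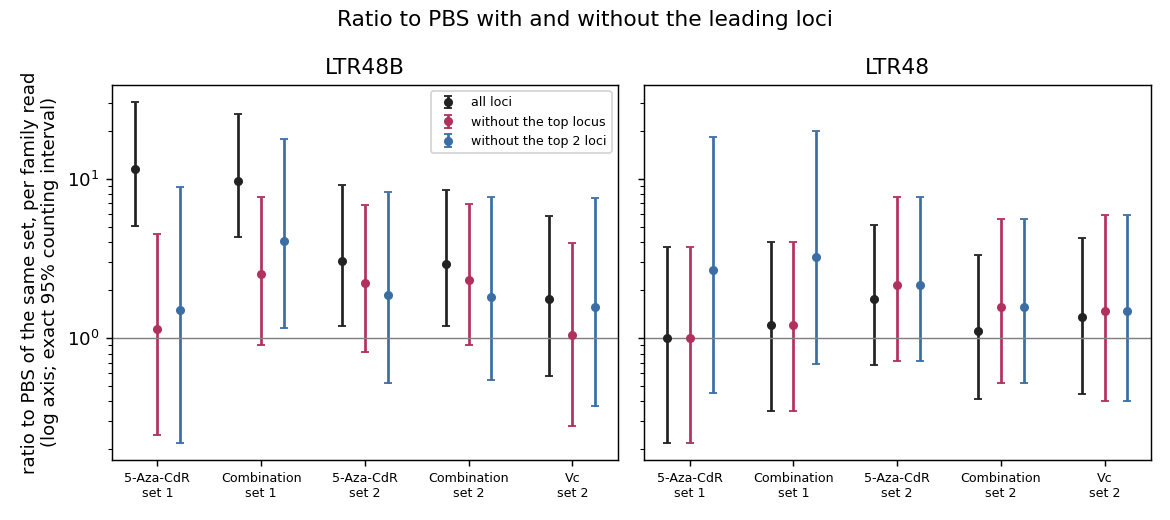
Ratio of each library's level to the PBS library of its set (vertical log axis) for LTR48B (left) and LTR48 (right), with all copies, without the leading copy and without the leading 2; bars are exact conditional binomial 95% intervals of counting error. The LTR48B ratio of set 1 with 5-Aza-CdR goes from 11.5 to 1.15 when the chromosome 6 copy is left out, and that of set 2 from 3.03 to 2.20.

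Reads around the chromosome 6 copy can be seen only at other annotated copies of LTR elements, since the sheets count no other sequence. Whether reads extended into the sequence between these copies cannot be told. Within 10 kb the sheets list 7 further copies of LTR elements, all on the minus strand like the LTR48B copy itself, with 12 reads in all libraries together. The highest was a MER41B copy with 6 reads, 2 of them with PBS and 3 with Vc in set 2. In the set 1 libraries where the LTR48B copy had 36 and 31 reads, no single neighbour had more than 1 read. The nearest LTR copy on the opposite strand was an LTR57 copy 18037 bases away, and the nearest LTR48B copy on the opposite strand lay 695388 bases away. The sheets give the strand of the annotation and not of the reads, and repeats other than LTR elements were not analysed here. Around the chromosome 10 copy there were 3 LTR copies within 10 kb, 1 of them on the opposite strand, with 1 read in all, and the nearest opposite copy was an MLT1L element 6317 bases away.

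**Figure D5:**
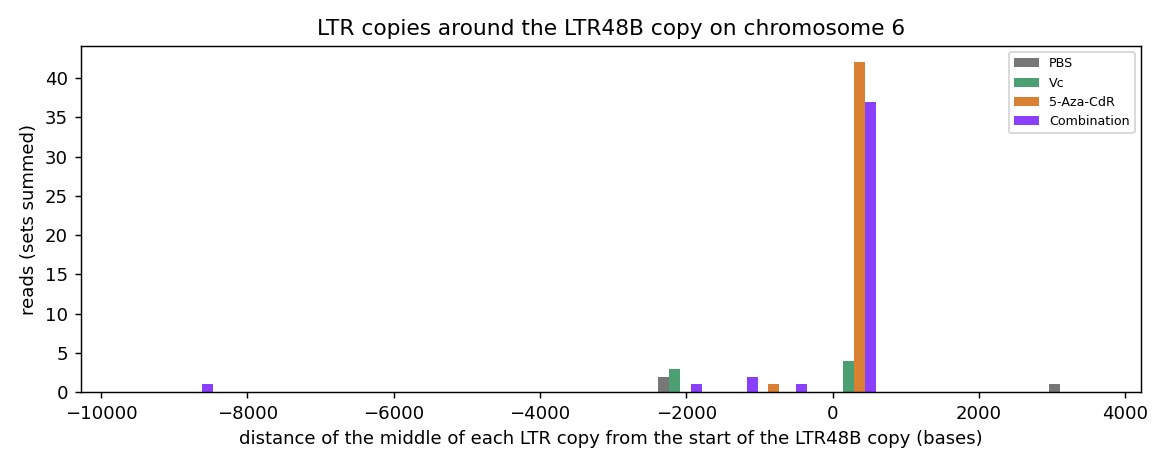
Reads at the LTR48B copy on chromosome 6 and at the 7 other annotated LTR copies within 10 kb, by treatment with the sets summed (vertical axis), against the distance in bases of each copy's middle from the start of the LTR48B copy (horizontal axis); bars of a copy are drawn side by side. The neighbours have 6 reads or fewer each, against 83 at the LTR48B copy.

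LTR48 showed no such leading copy. Of 975 copies, 39 (4.00%) had reads, 28 of them a single read, and no copy reached 10. The 2 copies with most reads held 11 of 62 reads (17.7%), and the effective number of copies was 25.3 over all libraries. Only 7 copies had reads in at least 2 libraries and 1 had reads in both sets. A 70-base copy on chromosome 5 at 154862571 to 154862640 (minus strand) had 6 reads, 2 each with PBS, Vc and 5-Aza-CdR in set 2 and 0 elsewhere. Its reads did not separate the treatments.

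A 61-base copy on chromosome 2 at 269591 to 269651 (plus strand) had 5 reads, all with PBS in set 1, where they made up 62.5% (30.6 to 86.3%) of the family's 8 reads. It overlaps a MER39 copy at 269636 to 270040, which is listed with 5 reads in the same library and 0 in the others. Whether the same reads were counted for both is not given in the sources used here. Without these 2 copies, LTR48 counted 3, 4 and 6 reads in set 1 (PBS, 5-Aza-CdR, Combination) and 5, 7, 13 and 13 reads in set 2 (PBS, Vc, 5-Aza-CdR, Combination), and its fitted log2 changes from PBS were 1.43 for 5-Aza-CdR and 1.32 for the Combination, against 0.71 and 0.47 with all copies. In set 1 only the PBS count changed, from 8 reads to 3, so higher changes from PBS are built into this step. The ratios to PBS were then 2.675 (0.4525 to 18.26) with 5-Aza-CdR and 3.231 (0.69 to 19.97) with the Combination in set 1. In set 2 they were 2.149 (0.7191 to 7.7) and 1.561 (0.5221 to 5.591). All of these intervals include 1.

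Of the 62 LTR48 reads, 19 lay on chromosome 16 copies of 2 lengths. Of 49 LTR48 copies there, 24 were 430 or 432 bases long, 7 and 17 of them, out of 27 such copies on all chromosomes; this group was noticed after its values were seen. Copies of equal length may be near-identical, and then reads could be split among them or assigned at random, so single copies of the group are uncertain and only their sum is given. The sum was 0 of 8 LTR48 reads with PBS, 1 of 4 with 5-Aza-CdR and 4 of 6 with the Combination in set 1. In set 2 it was 2 of 7 with PBS, 0 of 9 with Vc, 4 of 15 with 5-Aza-CdR and 8 of 13 with the Combination. The share was highest with the Combination in each set, 66.7% (30.0 to 90.3%) and 61.5% (35.5 to 82.3%), and the intervals overlap those of 5-Aza-CdR, 25% (4.56 to 69.9%) and 26.7% (10.9 to 52.0%). The 19 reads lay on 12 of the 24 copies, with at most 3 at any single one.

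Copies with reads were longer than those without. The median length was 511 bases for LTR48B copies with reads against 334 for those without, and 430 against 333.5 bases for LTR48. Copies of at least 500 bases made up 55.3% of LTR48B copies with reads and 37.9% of all LTR48B copies. For LTR48 the order was the other way, 28.2% against 34.4%. Of the 39 LTR48 copies with reads, 12 belong to the chromosome 16 group of 430 or 432 bases. A longer copy offers more bases on which a read can be counted, but whether length accounts for these differences was not tested. Strand was balanced, with 21 plus and 17 minus among the LTR48B copies with reads and 19 plus and 20 minus among those of LTR48.

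The comparison of the Combination with 5-Aza-CdR alone asks what the Combination added, and it was not the difference by which the families were chosen, although it uses the same libraries. Within sets the ratio of the Combination to 5-Aza-CdR was 0.846 (0.535 to 1.34) and 0.957 (0.531 to 1.75) for LTR48B, and 1.21 (0.286 to 5.82) and 0.629 (0.276 to 1.42) for LTR48. Neither family passed the test, and nor did any of the 352 families (0.0%). LTR48B had a log2 difference of -0.08 (-1.06 to 0.89), with an edgeR adjusted p of 0.999, and LTR48 one of -0.23 (-1.79 to 1.32), also with an edgeR adjusted p of 0.999. At an unadjusted p under 0.05 edgeR gave 9 families and DESeq2 gave 2, with 0 after adjustment in both. A change of LTR48B of 2-fold either way is close to the bounds of this interval, so a smaller effect of the Combination could not be seen. Without the chromosome 6 copy the LTR48B difference was 0.53, of opposite sign.

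In a fit over the 409 annotated copies with at least 30 reads, the chromosome 6 copy was the only LTR48B or LTR48 member. It gave a log2 difference of -0.64 (-2.47 to 1.19) between Combination and 5-Aza-CdR. As the copy entered this fit through its reads with those treatments, its difference is a description with no test. None of the 409 copies passed (0.0%) in edgeR's test, while 7 had an unadjusted p under 0.05. Without PBS replicate 1, and again without PBS replicate 2, 8 copies passed, 1 higher and 7 lower with the Combination.

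Vc alone was measured in 1 library, so its test borrows the spread of the other treatments and shares the PBS libraries with the comparisons that chose the families. LTR48B had 10 reads with Vc against 6 with PBS in set 2, a ratio of 1.75 (0.577 to 5.87), and LTR48 had 9 against 7, a ratio of 1.35 (0.448 to 4.27). On the log2 scale these ratios are 0.81 and 0.435. The fitted differences that follow also draw on the set 1 libraries through the term for the set. Without that term the fit gave 0.79 for LTR48B and 0.44 for LTR48. The log2 difference of LTR48B was 1.37 (-0.26 to 3.00), with an edgeR adjusted p of 0.996. For LTR48 it was 0.14 (-1.87 to 2.14), with an edgeR adjusted p of 0.996. No family passed (0 of 352, 0.0%); edgeR gave 5 families and DESeq2 1 at an unadjusted p under 0.05, and without PBS replicate 2 edgeR called 38. Without the chromosome 6 copy, which had 4 reads with Vc, LTR48B had 6 reads against 6 and a fitted log2 difference of -0.25. Without the chromosome 10 copy as well it had 6 against 4, a ratio of 1.58 (0.374 to 7.60), and a fitted log2 difference of 0.58. No test of Vc is given for the chromosome 6 copy alone, since it entered the fit over copies through its reads with 5-Aza-CdR and the Combination.

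The families whose levels moved most like those of LTR48B over the 7 libraries, by Pearson's r of log2(CPM + 1) with each set's mean removed, were LTR13A (r = 0.98), LTR7Y (0.941) and LTR12C (0.936). All of these libraries share treatments and depth, so r is a description. LTR13A had 16, 18 and 21 reads in set 1 (PBS, 5-Aza-CdR, Combination) and 39, 40, 62 and 76 in set 2 (PBS, Vc, 5-Aza-CdR, Combination). In the same order its levels were 691.7, 1561 and 1467 RPM in set 1 and 2005, 2163, 2635 and 2345 RPM in set 2. That rise was smaller than the rise of LTR48B, from 302.6 RPM with PBS to 3469 and 2933 in set 1. LTR12C, the LTR of HERV9 proviruses, went from 286 reads with PBS to 1807 and 2926 in set 1, and from 851 with PBS and 786 with Vc to 5130 and 8655 in set 2. Nearest to LTR48 were Harlequin-int (0.942), LTR66 (0.907) and LTR46 (0.869), while LTR48 and LTR48B gave 0.391.

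Among 121 other LTR families of the ERV1 class, listed with earlier results known, 61 were tested. For 5-Aza-CdR minus PBS 3 rose (LTR12C, LTR12 and LTR12E) and 0 fell in edgeR's test, where 1.42% of all families passed, with a median log2 change of 0.26 against -0.02 over all 352 families. For Combination minus PBS 5 rose (LTR12C, LTR12, LTR12_, LTR12E and LTR10F) and 0 fell, where 2.56% of all families passed, with a median of 0.23 against -0.07. LTR12 rose by 2.22 (1.46 to 2.98) with 5-Aza-CdR and 2.98 (2.21 to 3.74) with the Combination on the log2 scale, and LTR10F by 1.92 (0.96 to 2.88) with the Combination. For Combination minus 5-Aza-CdR and for Vc minus PBS 0 of the 61 passed, with medians of 0.03 and -0.08. With total reads as library size, 3 rose and 2 fell for 5-Aza-CdR and 5 rose and 2 fell for the Combination. The counts also depended on single libraries: without PBS replicate 1, 11 rose and 1 fell for 5-Aza-CdR and 9 rose and 1 fell for the Combination, of 56 tested. Without PBS replicate 2, 8 rose and 3 fell for 5-Aza-CdR and 9 rose and 6 fell for the Combination, and the count for 5-Aza-CdR was 0 without 5-Aza-CdR replicate 1 and 6 without Combination replicate 2.

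Set 1 also has a sheet in which each family count is divided by a tRNA number of the library, which was 232558 with PBS, 38200 with 5-Aza-CdR and 15946 with the Combination. On that scale the ratio to PBS was 34.8 and 87.5 for LTR48B with 5-Aza-CdR and the Combination, and 3.04 and 10.9 for LTR48. The tRNA number fell more than the family reads did, so every family ratio is larger on this scale, that of LTR48 included.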

How the data were processed

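Per the labels' protocols, double-stranded RNA was pulled down with J2 after RNase T1, treated with TURBO DNase, sheared and made into libraries with a small RNA kit. The authors deposited raw read counts per repeat family and per annotated copy, and for set 1 a ratio of each count to a tRNA number. The genome build is hg19, per the submitters' processing notes, which name Bowtie2 and Picard for set 2 only; other tools, and how reads mapping to several copies were counted, are not given in the sources used here. Starts were made 1-based and lengths taken from coordinates. Family and copy sheets differed for 6 of 500 families and not for LTR48 or LTR48B. In set 1 the totals are far apart, 23131, 11531 and 14319 reads in the family sheet (PBS, 5-Aza-CdR, Combination) and 133279, 39098 and 50826 in the copy sheets. Summed over set 1, the copy sheets hold 161009 reads of HERVE_a-int, 99.99% at a single copy, and 13218 of MER11B, 99.64% at a single copy. RPM uses the family sheets, and the copy fit and shares use the copy sheets.

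The members and lists were chosen with earlier results of these data known. Counts were fitted with edgeR 4.0.16 in R 4.3.3 (TMM, filterByExpr, quasi-likelihood, terms for treatment and set, Benjamini-Hochberg over 352 families). The fit was also run on simulated counts with large changes, less spread than these data and no set effect. That run does not show how the fit behaves at the spread of these data. DESeq2 1.42.0 was an alternative. The set, given by the workbook in the labels, served as the pairing: deviations of same-set libraries correlated at 0.289, 0.456 and 0.493. Families were named as the 3 most alike, copies by 10 reads or more or as leading in a set, and ERV1 LTR families when past 0.05. Alternatives were total reads, no filter, no set term, copy sheets, each library left out, and 3 added after seeing the data (library sizes from before the filter, 2 leading copies left out, libraries of a set summed).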

Additional observations from a re-analysis of the deposited data

How the results depend on the processing

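The number of families past an adjusted p of 0.05 in edgeR depended on the setting, and the cause was not tested. For 5-Aza-CdR minus PBS it was 11 with total reads as library size (6 higher, 5 lower), 11 with no filter on low counts (8 higher, 3 lower) and 0 without the set as a replicate block, where 20 families had an unadjusted p under 0.05; DESeq2, fitted with the set term, called 5, and leaving out each library gave 1 (5-Aza-CdR replicate 1) to 75 (PBS replicate 2), with 39 without PBS replicate 1 and 10 without Combination replicate 2. For Combination minus PBS the numbers were 17 (9 higher, 8 lower), 15 (11 higher, 4 lower) and 2, and leaving out each library gave 6 to 66, with 31 without PBS replicate 1 and 66 without PBS replicate 2. Among ERV1 LTR families the numbers for 5-Aza-CdR were 5, 6 and 0, with 0 to 12 over left-out libraries; for the Combination they were 8 with no filter and 1 without the block, with 4 to 15 over left-out libraries. Combination minus 5-Aza-CdR gave 0 to 11 families (0 to 3 of ERV1) and Vc minus PBS 0 to 38 (0 to 4 of ERV1) over left-out libraries, with values above 0 without either PBS library for the former and without PBS replicate 2 for the latter, and 0 otherwise.

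The LTR48B difference between Combination and 5-Aza-CdR, -0.08, was 0.53 without its leading copy, 0.61 without its leading 2 and between -0.38 and 0.27 over left-out libraries, above 0 without 5-Aza-CdR replicate 1 or Combination replicate 2 (0.27 and 0.03). Vc minus PBS was -0.25 for LTR48B without the leading copy and between 0.75 and 2.15 over left-out libraries, and 0.58 without the leading 2. LTR48 gave -0.35 to 0.39 for Vc, -0.35 without PBS replicate 2. LTR48B minus PBS with 5-Aza-CdR was 0.97 without the leading copy and 0.996 without the leading 2. LTR48 with 5-Aza-CdR was 1.43 without its leading 2 and 0.33 to 1.22 over left-out libraries, and Combination minus 5-Aza-CdR was -0.64 to -0.13. With the Combination LTR48 was 0.19 with total reads, 0.68 without its leading copy, 1.32 without the leading 2 and 0.053 to 0.826 over left-out libraries. LTR48 fell under the filter without Vc or 5-Aza-CdR replicate 2, so it has no value there. Without the set as a replicate block LTR48B no longer passed for 5-Aza-CdR or Combination minus PBS, although its values were 2.89 and 2.78; for Combination minus 5-Aza-CdR it gave -0.11, and no call of LTR48 changed. Merging copies within 1000 bases, or dividing by the family sheet, moved no share at the leading copy. Depth limits the rest: LTR48 had at most 15 reads in a library.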
